A study of Homo sapiens with 24 samples.

Results

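The genes described here are 10 transcription factors and fast-response genes of the AP-1 and immediate early class, FOS, FOSB, FOSL1, FOSL2, JUN, JUNB, JUND, ATF3, EGR1 and IER2, in U87 glioblastoma cells after proton therapy (PT) with or without the SRC inhibitor Si306. They were taken by name from the 30982 gene names of the array, together with every probe of each, and the list was chosen by the log2 ratios of FOS in these arrays, which were lower after protons and higher with Si306, by far more at 2 than at 10 Gy. FOS is therefore described by its values alone, with no test, and the other 9 were listed by name with earlier results of these data known. The 10 genes have 16 probes on 25 spots, and all 16 probes passed the filter on dim signals, as did 22825 of the gene names.

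AP-1 is a dimer of basic leucine zipper proteins that pairs a FOS family subunit with a JUN family subunit, or joins JUN subunits to each other, and binds short palindromic DNA sites. FOS, EGR1 and IER2 are immediate early genes: growth factor, stress and radiation signals that pass through MAP kinases raise their transcription within minutes, without new protein synthesis, and the rise is usually brief. SRC is a tyrosine kinase upstream of these MAP kinases, and in glioblastoma the AP-1 factors are known for their part in growth, invasion and the mesenchymal state.

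U87 MG is a human glioblastoma cell line. In the configurations U87 2 Gy and U87 10 Gy, cells given 2 or 10 Gy of protons were compared with untreated cells. In U87 Si306 + 2 Gy and, at the higher dose, U87 Si306 + 10 Gy, cells given 10 µM Si306 before irradiation were compared with cells given PT alone at that dose, so no configuration holds Si306 without protons. RNA was taken 24 h after irradiation, long after the usual peak of an immediate early response. The treated RNA carried Cy5 and the control RNA Cy3 on every array, with no dye swap, and the values below are log2 ratios of Cy5 to Cy3.

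The 24 deposited scans were labelled as 6 biological replicates of each configuration, but their headers name 8 arrays, 2 for each configuration, each scanned 3 times. Scans of an array were averaged, so n = 2 arrays for a configuration, except for 2078 tested probes that lack a value on an array (FOSL2 in U87 2 Gy and IER2 in U87 Si306 + 10 Gy have 1), and whether the arrays of a configuration hold RNA of separate cultures is not given in the sources used here. The p-values then measure only the spread between arrays, which may be technical. The scans labelled U87 2 Gy replicate 5 and U87 10 Gy replicate 2 each lie on an array whose other scans carry the other dose, and both were left out. With these scans kept under their labels, limma called 0 gene names, and 0 of the 9 tested here, between the PT doses, and 335 names and 1 of the 9 at an unadjusted p under 0.05. Without both arrays on which they lie, 1910 gene names passed, against 4687. Log2 ratios correlated at 0.913 to 0.961 between arrays of a configuration, at 0.787 to 0.84 between doses and at -0.073 to 0.012 between PT and Si306 arrays. The glioblastoma genes VIM, NES, CD44 and FN1 were well above background on 100% of scans. Of the markers of other cell types, CD3E was also detected on 100% of scans with a dim signal, and PTPRC, PECAM1, MBP and EPCAM were detected on 31.8% to 86.4%.

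All PT arrays lie on 1 slide and all Si306 arrays on the other, so slide and Si306 cannot be told apart, and the control channel of the Si306 slide did not match the PT slide. RNA of cells given PT alone should hold the same ratio to untreated cells whether it is read directly on the PT slide or through the Cy3 channels of both slides. Over 30273 probes, the indirect and direct ratios at 2 Gy correlated at -0.03, and their gap ran from -1.82 at the 5th percentile to 1.79 at the 95th. For ATF3 the gap was -5.01 at 2 Gy, a Cy3 signal on the Si306 slide 32.3-fold lower than the direct ratio would give, and 0.535% of the probes had a larger gap. It was -3.41 for FOSL2, -1.78 for FOS, 1.61 for JUNB and 2.03 for IER2, and 0.10 for JUN. The gaps at 10 Gy had the same sign for these genes except JUN, at -0.29, and EGR1 had gaps of -1.11 and 0.31. The Cy3 channels of the Si306 arrays at 10 and 2 Gy also differed little from each other, with an SD over probes of 0.115, against 0.117 for the Cy3 channels of the PT arrays, which hold untreated RNA at both doses. Of 10 gene names that differed at least 2-fold between the PT doses, 2 had a Cy3 difference in the same direction on the Si306 slide and 0 reached 2-fold. For EGR1 the difference of 10 and 2 Gy was -1.38 between PT arrays and 0.08 between the Cy3 channels of the Si306 arrays. The cause was not tested. Ratios within the Si306 slide are given below as measured, against the RNA labelled PT alone, and PT and Si306 values are not added up.

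**Figure D1:**
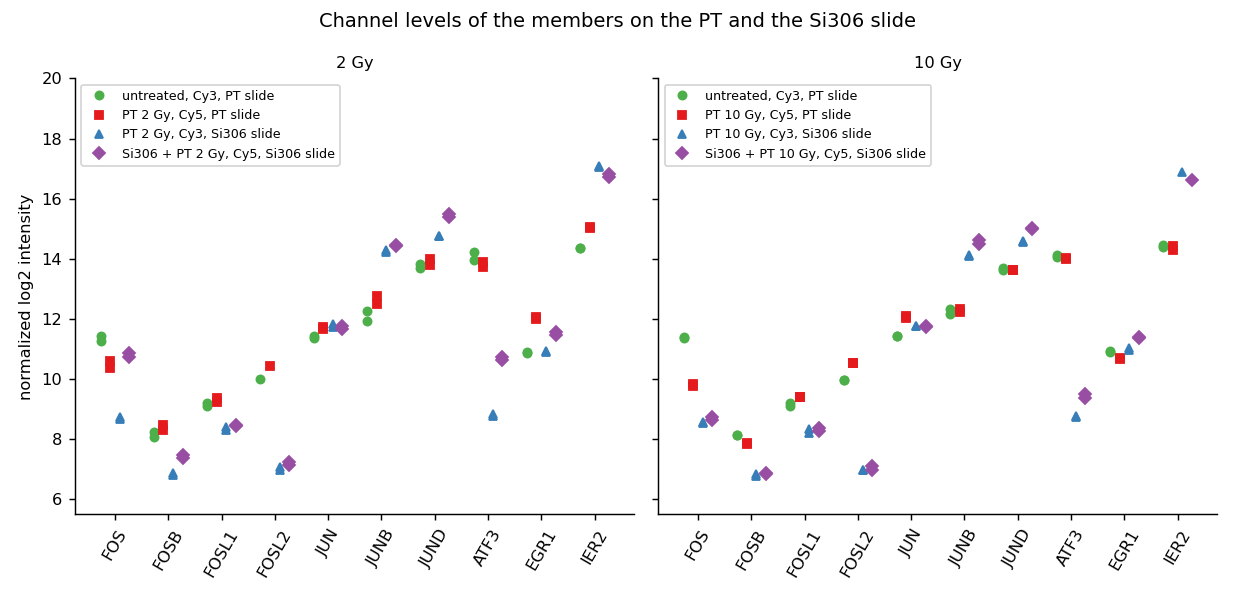
Normalized log2 intensity of each gene's brightest probe in each channel at 2 Gy (left) and 10 Gy (right), 1 point per array; levels of different genes are not comparable, because probes differ in brightness. The RNA labelled PT alone sat far lower on the Si306 slide (blue triangles) than on the PT slide (red squares) for ATF3, at 8.80 against 13.82 at 2 Gy, and higher for IER2, at 17.07 against 15.04.

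The 250 bases before a RefSeq transcription start (GRCh38.p14), the first listed for each gene, are shown for the genes on which the results turn. They are read on the gene's own strand. FOS and ATF3 had the highest ratios with Si306 + 2 Gy, and EGR1 and IER2 the largest differences between the PT doses. Capitals mark the core TGACG of a cyclic AMP response element (CRE) or its complement CGTCA, the TATA box TATAAA, the EGR site GCGNGGGCG and the CArG box bound by serum response factor.
FOS: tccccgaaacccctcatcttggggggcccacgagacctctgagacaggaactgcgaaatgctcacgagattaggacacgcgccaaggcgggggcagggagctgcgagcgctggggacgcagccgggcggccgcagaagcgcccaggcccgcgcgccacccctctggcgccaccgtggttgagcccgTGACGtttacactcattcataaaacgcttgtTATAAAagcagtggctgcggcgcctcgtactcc
ATF3: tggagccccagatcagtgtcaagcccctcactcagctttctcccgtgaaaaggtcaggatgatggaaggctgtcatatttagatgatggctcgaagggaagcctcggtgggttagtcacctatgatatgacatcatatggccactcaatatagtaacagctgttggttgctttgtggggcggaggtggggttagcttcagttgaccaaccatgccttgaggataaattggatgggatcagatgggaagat
EGR1: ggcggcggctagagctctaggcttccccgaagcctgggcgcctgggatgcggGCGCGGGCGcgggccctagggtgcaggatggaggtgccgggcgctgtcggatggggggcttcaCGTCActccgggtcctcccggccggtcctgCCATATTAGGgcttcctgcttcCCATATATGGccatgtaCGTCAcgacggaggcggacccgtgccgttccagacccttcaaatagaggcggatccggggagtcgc
IER2: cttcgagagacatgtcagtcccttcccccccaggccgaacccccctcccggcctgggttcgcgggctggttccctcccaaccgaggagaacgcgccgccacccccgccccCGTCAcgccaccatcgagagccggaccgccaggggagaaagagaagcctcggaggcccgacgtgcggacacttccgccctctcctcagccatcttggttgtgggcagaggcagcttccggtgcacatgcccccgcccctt
These windows are chr14:75278578-75278827 (+ strand) for FOS, chr1:212565157-212565406 (+ strand) for ATF3, chr5:138465229-138465478 (+ strand) for EGR1 and chr19:13150161-13150410 (+ strand) for IER2. Both strands were searched, in 35116 promoters of the table, and 9 of the 10 genes were found in it, while FOSL1 was not. The core TGACG lay in 8 of the 9 windows, all but that of ATF3, and in 21.2% of all promoters. For these genes other starts, and bases further upstream, were not examined, so a site outside the window would be missed. The full CRE TGACGTCA, which contains that core, was found in JUND and in 1.65% of promoters. EGR1 had 2 CArG boxes, at 105 to 96 and 83 to 74 bases before its start, and the site was found in 1.16% of promoters. EGR1 also held GCGNGGGCG, the site its own protein binds, which 8.41% of promoters held. FOS, FOSB and JUNB had the TATA box (10.7% of promoters), and the AP-1 site TGANTCA was found in 0 of the 9 and in 6.57% of promoters. A match of letters is a description of the window only.

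FOS is the founding FOS family subunit of AP-1 and the gene for which the list was drawn up. Its ratio on the 2 arrays was -0.84 and -0.89 in U87 2 Gy and -1.55 and -1.61 in U87 10 Gy, so FOS was lower than in untreated cells on all 4 PT arrays. With Si306 it was 2.13 and 2.05 at 2 Gy, and 0.16 and 0.13 at 10 Gy. The means correspond to 1.82-fold and 3-fold lower after PT and to 4.25-fold higher and 1.1-fold higher with Si306. FOS was lower at 10 than at 2 Gy by 0.72 (SE 0.0506) after PT alone and by 1.94 (SE 0.0506) in the Si306 ratio. Its probe (hg17, chr14:74817967-74818026, + strand) was well above background in both channels on every scan. Outlier marks left out 5 of its 22 scans, and the remaining scans of 1 array differed by at most 0.114. Centring each array on its median, in place of loess, moved U87 2 Gy to -0.28 and U87 Si306 + 10 Gy to 0.54, and with normexp fitted on all spots U87 Si306 + 2 Gy was 1.36.

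**Figure D2:**
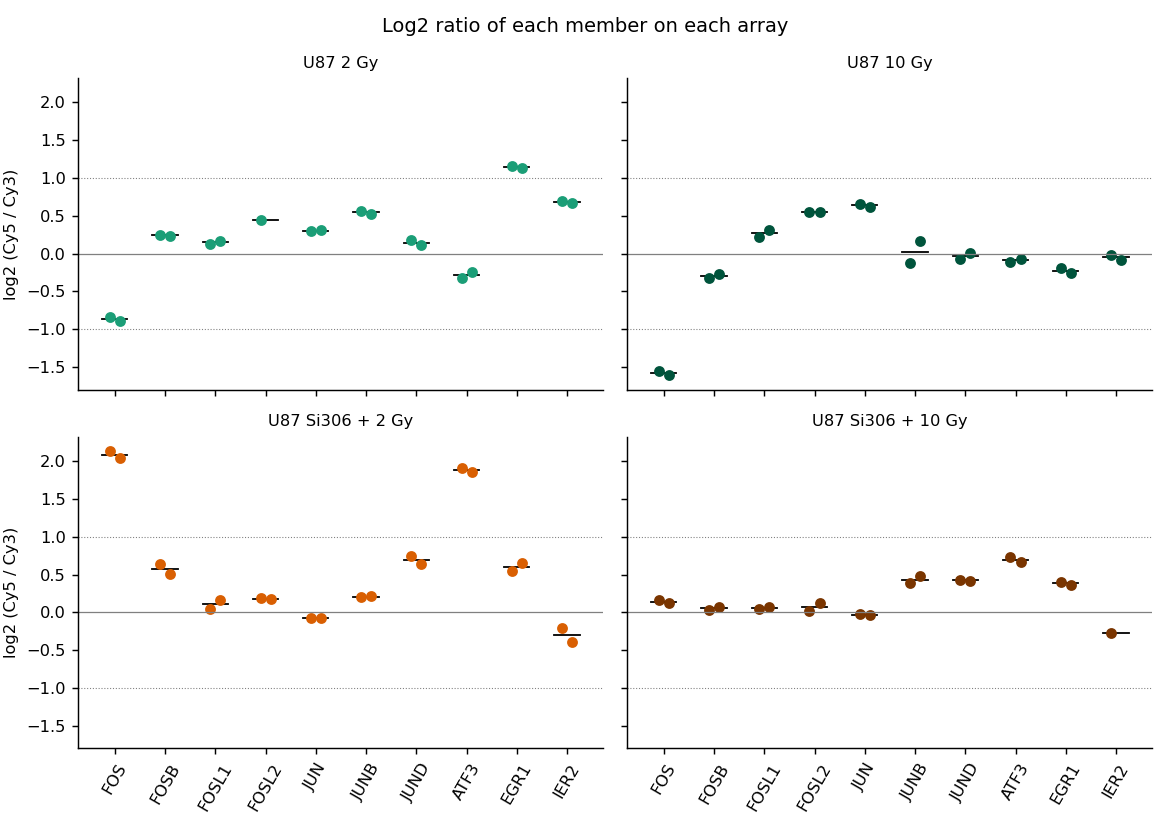
Log2 ratio of Cy5 to Cy3 of each gene's brightest probe, 1 panel per configuration and 1 point per array (n = 2; FOSL2 in U87 2 Gy and IER2 in U87 Si306 + 10 Gy have 1). FOS is the lowest gene in both PT panels and the highest with Si306 + 2 Gy, where ATF3 sits next to it at 1.91 and 1.86, and EGR1 is the highest in U87 2 Gy, at 1.16 and 1.14.

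Among the other FOS family subunits, FOSB differed between the doses, FOSL1 (Fra-1) was above 0 at both doses of PT, and the probes of FOSL2 (Fra-2) disagreed. FOSB, whose protein pairs with JUN as FOS does, was 0.24 and 0.24 in U87 2 Gy and -0.33 and -0.27 in U87 10 Gy. With Si306 it was 0.65 and 0.50 at 2 Gy and 0.03 and 0.07 at 10 Gy. FOSB rose at 2 Gy (adjusted p = 0.000317), fell at 10 Gy (adjusted p = 5.42e-05) and rose with Si306 + 2 Gy (1.49-fold, adjusted p = 3.22e-07), but did not pass with Si306 + 10 Gy (adjusted p = 0.27). These calls depended on the processing: by the scanner software's own log ratio FOSB did not pass at 2 Gy (0.17, adjusted p = 0.0549), was 1.33 with Si306 + 2 Gy and passed with Si306 + 10 Gy (0.42, adjusted p = 0.00195), and under median centring it did not pass at 10 Gy (-0.01, adjusted p = 0.827). With normexp fitted on all spots, FOSB passed in neither PT dose nor with Si306 + 2 Gy (0.10, adjusted p = 0.453). Its Cy3 signal was well above background on 83.3% of the Si306 + 2 Gy scans and 50% of the Si306 + 10 Gy scans, so those ratios rest on a dim control.

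FOSL1 was 0.13 and 0.16 in U87 2 Gy and 0.22 and 0.32 in U87 10 Gy, and passed in both (adjusted p = 0.00738 and 0.000135). The pass at 2 Gy was lost without the second array of U87 2 Gy (adjusted p = 0.073), and with normexp fitted on all spots neither dose passed (0.07 and 0.14, adjusted p = 0.474 and 0.0769). Its ratios with Si306 lay between 0.04 and 0.16, with a pass at 2 Gy (0.11, adjusted p = 0.0344) that was lost with a normexp offset of 16 (adjusted p = 0.0853) or without the second array (adjusted p = 0.465), and none at 10 Gy (0.06, adjusted p = 0.22). The dimmer FOSL1 probe was 0.47 and 0.43 after the doses of PT and -0.07 and -0.17 with Si306. The brightest FOSL2 probe was 0.44 on the 1 array of U87 2 Gy that kept a value and 0.56 and 0.55 in U87 10 Gy (adjusted p = 6.24e-07). For the lone array at 2 Gy the fit takes the spread from the other configurations (adjusted p = 4.5e-05). The other FOSL2 probes disagreed with each other after PT: 1 was -0.05 and -0.21 in the means of the 2 doses and the other 0.83 and 0.81, so no direction is drawn for this gene after PT. With Si306 + 2 Gy, FOSL2 was 0.18 and 0.24 by the means of the probes whose Cy3 signal was well above background, which that of the other probe was on 0% of those scans. The call of the brightest probe there (adjusted p = 0.00149) was not kept under all alternatives. They ran from 0.03 to 0.25, with a largest adjusted p of 0.925.

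**Figure D3:**
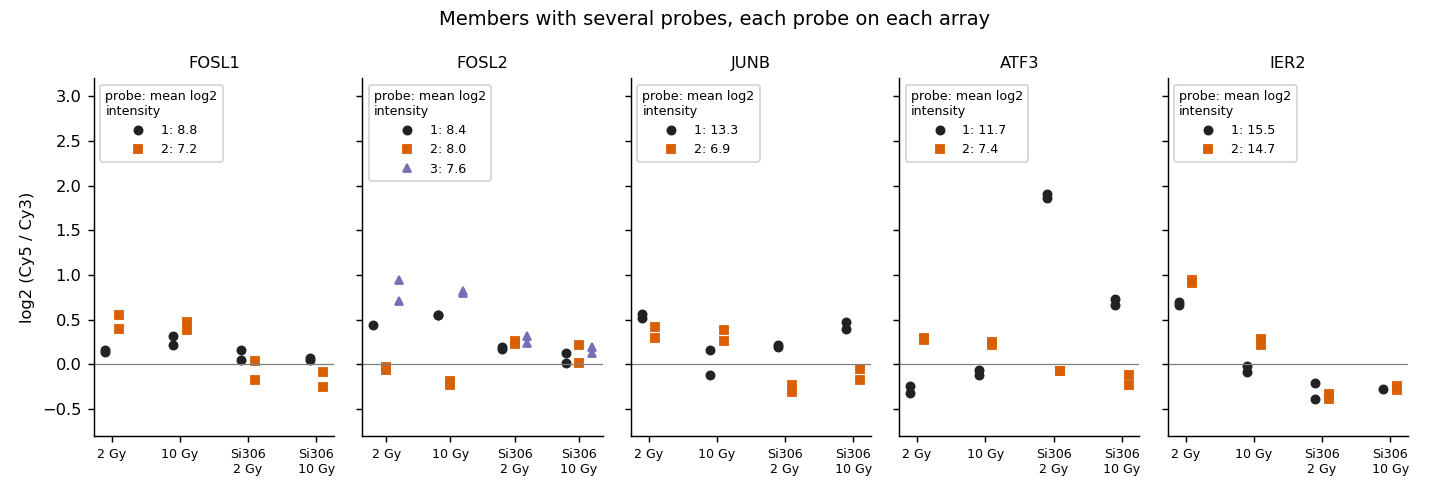
Log2 ratio of Cy5 to Cy3 of each probe of the 5 genes with several probes, 1 point per array, with each probe's mean log2 intensity in the key. The IER2 probes lie close together in the Si306 configurations and further apart after PT, while the FOSL2 probes lie on both sides of 0 after PT and the dim ATF3 probe (7.39) sits apart from the bright one (11.7).

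JUN, the main partner of FOS, moved with the proton dose. It was 0.30 and 0.31 in U87 2 Gy and 0.66 and 0.62 in U87 10 Gy, a rise at both doses (adjusted p = 1.07e-05 and 3.23e-08) that was larger at 10 Gy by 0.33 (SE 0.0446, adjusted p = 0.000607). With Si306, JUN was -0.07 on both arrays at 2 Gy and -0.02 and -0.04 at 10 Gy, and did not pass (adjusted p = 0.0746 and 0.414), while median centring turned these means to 0.89 and 0.59. The JUN probe has the most spots, 10 per array. After PT the rise of JUN was larger at 10 Gy, where FOS was lower than at 2 Gy.

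JUNB, a JUN family subunit that often restrains JUN, was 0.57 and 0.52 in U87 2 Gy and -0.12 and 0.16 in U87 10 Gy. It rose at 2 Gy (1.46-fold, adjusted p = 7.97e-06) and by this probe did not pass at 10 Gy (0.02, adjusted p = 0.756). The dim JUNB probe (6.94) rose at both doses, by 0.35 and 0.32 (adjusted p = 5.49e-05 and 0.000101), and at 10 Gy the mean of the probes (0.17, adjusted p = 0.00351) and median centring (0.54, adjusted p = 8.73e-09) passed too. With Si306, JUNB was 0.20 and 0.22 at 2 Gy and 0.39 and 0.47 at 10 Gy, and rose in both by the bright probe (adjusted p = 0.00632 and 4.27e-05), although the dim probe was -0.27 and -0.12 there and the mean of the probes at 2 Gy was -0.03. The call of the bright probe with Si306 + 2 Gy was also lost without the second array of that configuration (0.20, adjusted p = 0.0659), with all 24 scans (adjusted p = 0.211) and with normexp fitted on all spots (adjusted p = 0.137). JUND, the JUN subunit that most cells express constitutively, was 0.18 and 0.11 in U87 2 Gy and -0.08 and 0.00 in U87 10 Gy. It was 0.75 and 0.63 with Si306 + 2 Gy and 0.43 and 0.42 with Si306 + 10 Gy. JUND rose with Si306 at both doses (1.61-fold, adjusted p = 7.95e-08, and 1.34-fold, adjusted p = 3.54e-06) and at 2 Gy alone was 0.14 (adjusted p = 0.00838), which did not pass without the first array of U87 2 Gy (adjusted p = 0.125) or with all 24 scans (0.06, adjusted p = 0.442) and was 0.83 under median centring, and at 10 Gy alone its mean of -0.04 (adjusted p = 0.436) turned to 0.51 under median centring.

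ATF3 is a stress-induced bZIP protein that can pair with JUN and often acts as a repressor. Its bright probe (hg17, chr1:209182251-209182310, + strand) was -0.32 and -0.24 in U87 2 Gy and -0.12 and -0.07 in U87 10 Gy, and 1.91 and 1.86 with Si306 + 2 Gy and 0.73 and 0.66 with Si306 + 10 Gy. ATF3 rose 3.69-fold with Si306 + 2 Gy (log2 1.88, SE 0.0363, adjusted p = 5.49e-11) and 1.62-fold with Si306 + 10 Gy (adjusted p = 6.99e-08). At 2 Gy of PT alone it fell by 0.28 (adjusted p = 5.68e-05). At 10 Gy it was -0.09 with an adjusted p of 0.0482, a call that was lost under most alternatives, among them a normexp offset of 16 (adjusted p = 0.0738), no filter on dim probes (0.0761), normexp fitted on all spots (0.194), and the fits without the first or second array of U87 10 Gy (0.321 and 0.101) or without any 1 of the Si306 arrays (0.0573 to 0.0575). Both directions turned under median centring, to 0.41 and 0.48. The dim ATF3 probe was 0.29 and 0.23 after PT, opposite in sign, and not well above background in either channel on the Si306 slide. The rise with Si306 is thus carried by 1 probe, and the Cy3 signal of that probe has the 32.3-fold gap between the slides. Over all alternatives ATF3 ran from 0.90 to 2.65 with Si306 + 2 Gy and from 0.18 to 1.14 with Si306 + 10 Gy, where it did not pass with normexp fitted on all spots (0.18, adjusted p = 0.142).

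EGR1, a zinc finger factor induced by MAP kinase and SRF signals, had the highest ratio of the list after 2 Gy. It was 1.16 and 1.14 in U87 2 Gy, 2.22-fold higher than in untreated cells (log2 1.15, SE 0.0377, adjusted p = 2.02e-09), and -0.20 and -0.26 in U87 10 Gy. The fall at 10 Gy (log2 -0.23, adjusted p = 0.000321) depended on the processing, since median centring gave 0.26 and the 24 scans under their labels 0.22. With Si306, EGR1 was 0.54 and 0.66 at 2 Gy and 0.41 and 0.36 at 10 Gy, and rose in both (1.52-fold, adjusted p = 1.83e-07, and 1.3-fold, adjusted p = 6.36e-06). Its single probe (hg17, chr5:137832790-137832849, + strand) was well above background on every scan. With all 24 scans under their labels, EGR1 was 0.70 in U87 2 Gy and did not pass there (adjusted p = 0.0512) or with Si306 at 2 and 10 Gy (adjusted p = 0.156 and 0.373).

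IER2, a nuclear protein of the immediate early class, was 0.69 and 0.67 in U87 2 Gy and -0.02 and -0.08 in U87 10 Gy by its brightest probe, and 0.94 and 0.91 against 0.28 and 0.21 by the other. It rose at 2 Gy by both probes (1.6-fold, adjusted p = 7.22e-07, for the brightest), and at 10 Gy the probes gave -0.05 (adjusted p = 0.372) and 0.24 (adjusted p = 9.62e-05). The probes lie next to each other at hg17 chr19:13126586-13126645 and chr19:13126649-13126708. Outlier marks left out 10 of the 22 scans for the brightest probe and 1 for the other. With Si306, IER2 was -0.21 and -0.39 at 2 Gy and -0.28 on the 1 array with a value at 10 Gy. It fell by 0.30 at 2 Gy (adjusted p = 0.000195), and the mean of the other probe, with both arrays, was -0.27 at 10 Gy (adjusted p = 4.67e-05), but for the brightest probe these directions turned to 1.19 and 0.69 under median centring. For the lone array the fit takes the spread from the other configurations (adjusted p = 0.00358). Median centring moved the median of all gene names from 0.02 to 0.27 in U87 2 Gy and from 0.04 to 0.44 in U87 Si306 + 2 Gy, and that of the 2283 brightest names to 0.70 and 1.16, where loess left 0.01 and 0.00.

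The difference between the doses asks which genes of the list respond to the dose itself. A probe's dye effect drops out of this difference, whereas in a single configuration it cannot be told apart from the treatment. After PT alone, 5 of the 9 genes besides FOS were lower at 10 than at 2 Gy, where 10.9% of all tested gene names were, and 2 were higher, against 9.65%. EGR1 was lower by 1.38 (SE 0.0533, adjusted p = 7e-07), IER2 by 0.73 (SE 0.063, adjusted p = 8.29e-05), FOSB by 0.54 (SE 0.0552, adjusted p = 0.000131), JUNB by 0.52 (SE 0.0774, adjusted p = 0.00109) and JUND by 0.18 (SE 0.0547, adjusted p = 0.0408). The JUNB difference rests on its bright probe, since the dim probe gave -0.03 (adjusted p = 0.793) and the mean of both -0.28 (adjusted p = 0.00776). JUN was higher by 0.33 and ATF3 by 0.19 (adjusted p = 0.0259), but ATF3 did not pass by the scanner software's log ratio (adjusted p = 0.11), under median centring (0.07, adjusted p = 0.608) or by the mean of its probes (0.07, adjusted p = 0.307), and its dim probe gave -0.05. The JUND difference was likewise lost with a normexp offset of 16 (adjusted p = 0.0862), by the scanner software's log ratio (0.0943), with no filter on dim probes (0.0763) and without the first array of U87 2 Gy (0.172), either array of U87 10 Gy (0.219 and 0.0769) or either array of Si306 + 10 Gy (0.0597 and 0.0599). With all 24 scans under their labels 0 of the 9 genes passed by limma (1 at an unadjusted p under 0.05), with the lowest adjusted p at 0.336 for IER2, and with normexp fitted on all spots FOSB and JUNB did not pass (adjusted p = 0.485 and 0.106) besides JUND and ATF3 (0.147 and 0.549). FOSL1 and FOSL2 did not pass, at 0.12 (95% interval -0.00 to 0.24) and 0.11 (-0.03 to 0.26). Without both arrays that hold a scan of the other label, EGR1, IER2, FOSB, JUNB and JUN passed (EGR1 at -1.36, adjusted p = 0.00085), and JUND and ATF3 did not (adjusted p = 0.0809 and 0.111).

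The difference of the Si306 ratios compares, between the doses, the ratio of RNA with Si306 to the RNA labelled PT alone. As given above, the Cy3 channels that hold this control differed little between the doses. A Si306 effect that depends on dose therefore cannot be told apart from a dose difference of the treated RNA. Of the 9 genes, 4 had a lower Si306 ratio at 10 than at 2 Gy, where 12.1% of tested names did, and 0 of 9 a higher ratio by limma (1 at an unadjusted p under 0.05, JUNB), against 9.77%. ATF3 differed most, by -1.19 (SE 0.0514, adjusted p = 1.93e-07), then FOSB by -0.52 (adjusted p = 0.000139), JUND by -0.27 (adjusted p = 0.00669) and EGR1 by -0.22 (adjusted p = 0.0154). JUNB was the highest of the others, at 0.23 (95% interval 0.06 to 0.40, adjusted p = 0.0609). It passed without either array of U87 10 Gy (adjusted p = 0.0167 and 0.0166), with no background correction (adjusted p = 0.0378), by the mean of its probes (0.19, adjusted p = 0.0334) and with the GC curve removed (adjusted p = 0.0367), and turned to -0.20 under median centring. JUN, at 0.04 (-0.06 to 0.14), and IER2, at 0.02 (-0.15 to 0.20), had intervals on both sides of 0. The EGR1 call was lost without the second array of either Si306 configuration (adjusted p = 0.109 and 0.105), by the scanner software's log ratio (0.0512), with all 24 scans (0.841) and with normexp fitted on all spots (0.259), and that of JUND without the first array of U87 Si306 + 2 Gy (adjusted p = 0.0636) and with all 24 scans (0.148). FOSB did not pass with all 24 scans under their labels (adjusted p = 0.12) or with normexp fitted on all spots (-0.09, adjusted p = 1), and ran to -0.91 by the scanner software's log ratio. The ATF3 difference ran from -1.50 to -0.64 over all alternatives, with a largest adjusted p of 0.0127.

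**Figure D4:**
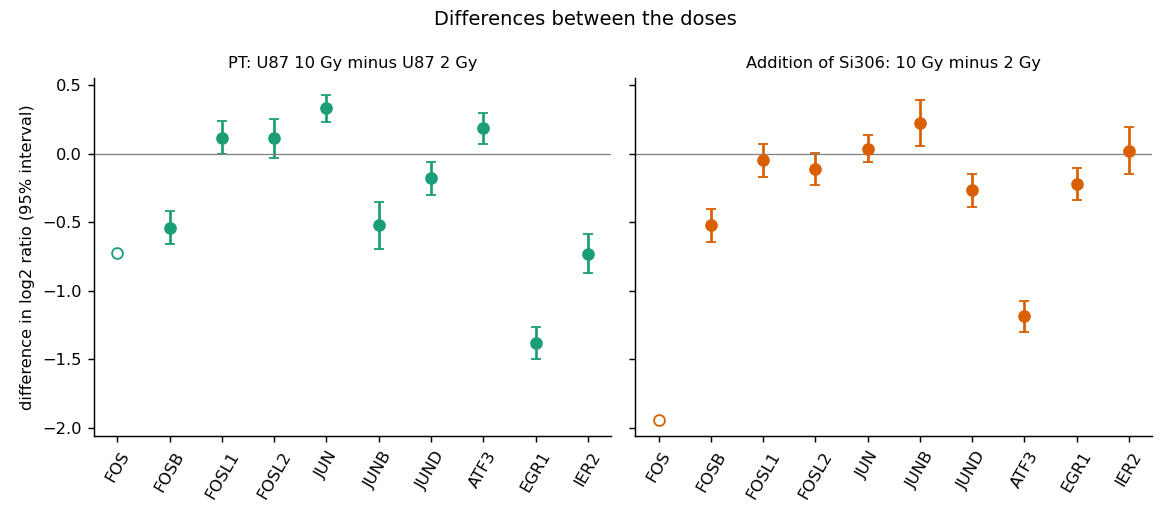
Difference in log2 ratio between 10 and 2 Gy with its 95% interval, for PT alone (left) and for the addition of Si306 (right), from the limma fit to 8 arrays. EGR1 lies at -1.38 in the PT panel and ATF3 at -1.19 in the Si306 panel, and FOS, drawn without a test, lies at -0.72 and -1.94.

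Counted by the brightest probe of each of the 9 genes, 8 rose and 1 fell in U87 2 Gy, beside 32.1% and 24.9% of all tested gene names. In U87 10 Gy 3 rose and 3 fell, beside 31.1% and 26.3%. FOSL2, whose probes disagree after PT, is among the genes counted as risen at both PT doses, also under median centring. With Si306 + 2 Gy 7 rose and 1 fell, beside 38.4% and 27.8%, and with Si306 + 10 Gy 4 rose and 1 fell, beside 35% and 27%. Under median centring, which moves the median of all gene names up, 9, 8, 9 and 7 rose in these configurations and 0 fell by limma, beside 59.5%, 57.7%, 63.7% and 59.6% of all names that rose and 25.7%, 24.2%, 26% and 21.5% that fell. For the differences between doses it left 1 higher and 5 lower after PT (4.86% and 11.3% of all names), and 0 higher and 7 lower with Si306 (17.3% and 42.7%). The median log2 ratio of the 9 was, with loess, 0.30, -0.04, 0.21 and 0.07 in these configurations, and that of all tested names 0.02, 0.02, 0.04 and 0.03. With loess, a change of at least 2-fold was measured for EGR1 in U87 2 Gy and ATF3 in U87 Si306 + 2 Gy, where 0.727% of names changed so far in each. It was measured for 0 of the 9 in the 10 Gy configurations, where 0.968% (PT) and 0.372% (Si306) did. Median centring took more genes past 2-fold, such as JUNB, JUND and ATF3 with Si306 + 10 Gy (1.24, 1.27 and 1.14). The share of all names past 2-fold under that centring was not counted. In these bulk RNA samples, fewer cells that express a gene and less RNA per cell cannot be told apart.

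The bZIP proteins that can pair with FOS, JUN or ATF3, such as ATF2, ATF4, JDP2 and the small MAF proteins, had 10 of 11 listed genes on the array. Of these 5 rose and 2 fell in U87 2 Gy (all tested names: 32.1% and 24.9%), 4 and 3 in U87 10 Gy (31.1% and 26.3%), 5 and 1 with Si306 + 2 Gy (38.4% and 27.8%), and 4 and 3 with Si306 + 10 Gy (35% and 27%), and 0 reached 2-fold. Their medians were 0.13, 0.05, 0.17 and 0.05. DDIT3, the stress factor CHOP, was 0.33 and 0.72 after the doses of PT and 0.79 and 0.38 with Si306.

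Of 25 other immediate early genes, 14 rose and 6 fell in U87 2 Gy, beside 32.1% and 24.9% of all tested names. In U87 10 Gy the counts were 9 and 8 (31.1% and 26.3%), with Si306 + 2 Gy 14 and 4 (38.4% and 27.8%), and with Si306 + 10 Gy 11 and 8 (35% and 27%). The medians were 0.15, -0.00, 0.12 and 0.02. IER5, a gene induced by radiation, rose 2.27-fold in U87 2 Gy (1.16 and 1.21, adjusted p = 5.03e-10) and 2.33-fold in U87 10 Gy (1.21 and 1.23, adjusted p = 2.65e-10). BTG2, an antiproliferative p53 target, rose 3.12-fold in U87 10 Gy (1.72 and 1.56, adjusted p = 3.77e-10). DUSP1, the phosphatase that switches MAP kinases off, rose 2.65-fold with Si306 + 2 Gy (1.41 and 1.41, adjusted p = 2.32e-10) and was 0.57 with Si306 + 10 Gy and -0.16 and -0.08 after PT. IER5 and BTG2 were above 0 in U87 10 Gy, where FOS, FOSB and EGR1 were below 0 (EGR1 not under median centring).

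Upstream of these genes, the list of SRF, its ELK and MRTF cofactors, CREB1, SRC and the MAP kinases with their activators holds 20 genes. Of these 11 rose and 5 fell in U87 2 Gy, where 32.1% and 24.9% of all tested names did, and 11 and 6 in U87 10 Gy, where 31.1% and 26.3% did. With Si306 + 2 Gy 3 rose and 8 fell (38.4% and 27.8% of all names), and with Si306 + 10 Gy 3 and 9 (35% and 27%). A difference between PT and Si306 was not tested for the list. MAP2K2, the kinase MEK2, rose 2.04-fold in U87 2 Gy (1.00 and 1.07, adjusted p = 4.16e-09), and SRC itself was 0.34 and 0.26 after PT and 0.14 and 0.17 with Si306.

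Among 17 genes known as AP-1 targets, 11 rose and 2 fell in U87 2 Gy, against 32.1% and 24.9% of all tested names. The counts were 8 and 2 in U87 10 Gy (31.1% and 26.3%), 8 and 6 with Si306 + 2 Gy (38.4% and 27.8%), and 9 and 5 with Si306 + 10 Gy (35% and 27%). The medians were 0.12, 0.04, -0.01 and 0.08. The single gene of this list past 2-fold was HMOX1, heme oxygenase, which rose 4.3-fold with Si306 + 2 Gy (2.12 and 2.10, adjusted p = 1.24e-11) and 2.28-fold with Si306 + 10 Gy (1.19 and 1.18, adjusted p = 1.71e-09). The matrix protease MMP1 was 0.52 and 0.56 with Si306, and the urokinase receptor PLAUR was -0.77 and -0.87.

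**Figure D5:**
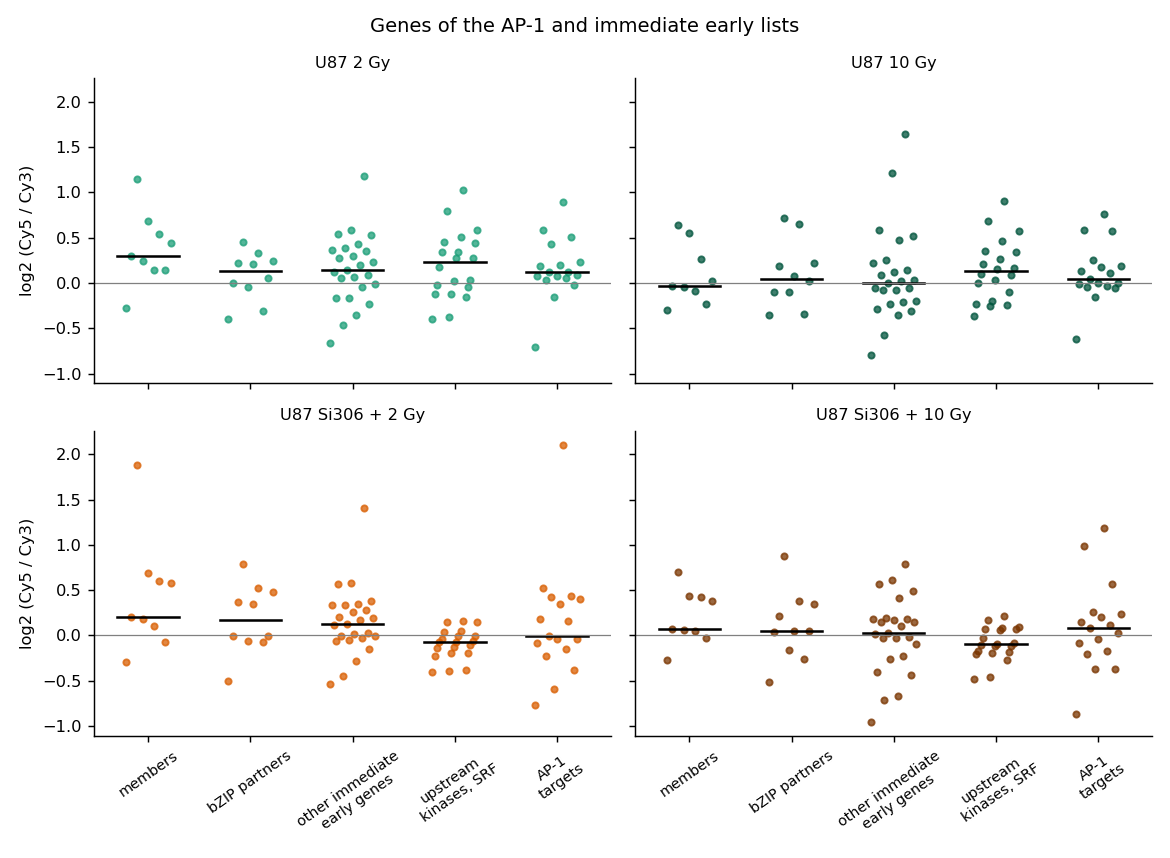
Log2 ratio of Cy5 to Cy3 of each gene of 5 lists, 1 panel per configuration; points are genes (brightest probe, mean of the arrays) and lines are list medians. The median of the upstream list is 0.23 and 0.13 after PT and -0.07 and -0.10 with Si306, and the highest points with Si306 + 2 Gy are HMOX1 at 2.11 and ATF3 at 1.88 (FOS is not drawn).

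The gene names whose pattern over the 8 arrays was most like that of FOS were taken from 417 whose configuration means spanned at least 1 on the log2 scale. Among them were SPINK1 (Pearson r = 0.9912), RGS4 (0.9891), FBN2 (0.9889) and HMOX1 (0.9885), which code for a trypsin inhibitor, a regulator of G protein signalling, a fibrillin and heme oxygenase. Each of these 4 was between 1.35 and 2.11 with Si306 + 2 Gy and lower with Si306 + 10 Gy, a pattern that the choice by likeness to FOS favours. After PT, where FOS was below 0, SPINK1 was -0.24 and -0.48, and RGS4 was 0.18 and 0.04. FBN2 was 0.04 and -0.06 there, and HMOX1 0.24 and -0.03. ATF3 stood at rank 25 (r = 0.9644) and EGR1 at rank 153 (r = 0.2845). The arrays of a configuration share their RNA labels and slide, so r describes 4 levels more than 8 independent points.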

How the data were processed

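RNA of U87 cells was measured on 2-colour Agilent arrays, 24 scans of 8 arrays on 2 slides, and 22 scans were used. The authors deposited, per scan of 45015 spots, the intensity of each dye, the local background and a log10 ratio from Agilent Feature Extraction 9.5.3.1; the authors' series matrix holds that log ratio. The intensities were used here, and the number of arrays limits the precision. Per scan, 57.3% to 66.5% (Cy3) and 63.4% to 74.7% (Cy5) of gene spots were well above background.

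Mean signal minus median local background was corrected with normexp (offset 50), fitted on spots not marked as outliers (3.1% to 5.98% were). Loess within each scan normalized the ratios, which were averaged over the spots of a probe and the scans of an array. Probes well above background in either channel on both arrays of at least 1 configuration were kept (30273 of 41000). R 4.3.3 and its package limma 3.58.1 fitted the 4 configurations together, with Benjamini-Hochberg adjustment over all probes kept; a call is an adjusted p under 0.05. The brightest probe stood for a gene. The fit was tested on simulated data. Figures were drawn with matplotlib 3.10.9.

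The members and lists were chosen with earlier results of these data known. Named genes are the 10 members, list genes past 2-fold (at most 5 per list and configuration) and the 5 genes most like FOS, of which 1 is not reported here; other list genes were named after their values were seen. Probe positions are those of the array (hg17), and the annotation of that build was not used here. Alternatives changed the background correction, normalization, filter, probe choice, use of scans and arrays; the normexp fit on all spots and a GC curve were added after seeing the data.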

Additional observations from a re-analysis of the deposited data

Results flagged for a closer look

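A difference between the 2 doses that passed the test of the difference itself was found for 7 genes after PT alone. As the log2 ratio at 10 Gy minus that at 2 Gy, it was -1.38 for EGR1, -0.73 for IER2, -0.54 for FOSB, -0.52 for JUNB, -0.18 for JUND, 0.33 for JUN and 0.19 for ATF3. For the addition of Si306 it was found for 4 genes, at -1.19 for ATF3, -0.52 for FOSB, -0.27 for JUND and -0.22 for EGR1. With all 24 scans under their labels, those of FOSB, JUND and EGR1 did not pass by limma (adjusted p = 0.12, 0.148 and 0.841). FOSB, JUND and EGR1 had the same sign in both settings, and ATF3 had opposite signs. By the labels, RNA of cells given PT alone enters both differences, so the settings are not independent. The PT difference of ATF3 did not pass under most alternatives, among them median centring (0.07, adjusted p = 0.608) and the mean of its probes (0.07, adjusted p = 0.307). That of JUND was lost as widely, among others with a normexp offset of 16 (adjusted p = 0.0862), by the scanner software's log ratio (0.0943) and without the first array of U87 2 Gy (0.172) or either array of U87 10 Gy (0.219 and 0.0769). With all 24 scans under their labels 0 of the PT differences passed by limma (1 at an unadjusted p under 0.05). That of JUNB rests on the bright probe, as the dim probe gave -0.03 (adjusted p = 0.793). Causes were not tested.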

How the results depend on the processing

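Over 22 alternatives, the 9 genes besides FOS kept direction and side of the threshold in 1027 results, passed newly in 31 and lost the call in 88. The direction turned in 36, of which 19 passed before or after and 17 passed in neither. The number of the 9 called was 9 and 6 after PT at 2 and 10 Gy, 8 and 5 with Si306 at those doses, and 7 and 4 for the differences between doses after PT and with Si306. Leaving out single arrays gave 7 to 9, 5 to 6, 6 to 8, 5 to 6, 5 to 7 and 3 to 5. Median centring gave 7 for the Si306 difference. With all 24 scans under their labels it was 5 in U87 Si306 + 2 Gy, 0 for the PT difference and 1 for the Si306 difference. The normexp fit on all spots, chosen after seeing the data, gave 5 and 2 after PT at 2 and 10 Gy, 4 with Si306 + 2 Gy, and 3 and 2 for the differences.

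Median centring reversed ATF3 in U87 2 Gy (0.41), JUND (0.51), ATF3 (0.48), EGR1 (0.26) and IER2 (0.54) in U87 10 Gy, JUN (0.89) and IER2 (1.19) with Si306 + 2 Gy, JUN (0.59) and IER2 (0.69) with Si306 + 10 Gy, and JUN (-0.30) and IER2 (-0.49) in the Si306 difference, where JUNB also turned (-0.20) with no call in either. The mean of all probes reversed ATF3 after 2 Gy (0.0031) and 10 Gy (0.0701) of PT, IER2 after 10 Gy (0.098) and JUNB with Si306 + 2 Gy (-0.0335). All 24 scans reversed EGR1 in U87 10 Gy (0.22). Leaving out single arrays gave FOSL2 from -0.0598 to 0.4396 in U87 2 Gy and from -0.2072 to 0.5561 in U87 10 Gy, and IER2 from -0.0833 to 0.2449 in U87 10 Gy. FOSL2 reversed without the first array of U87 2 Gy and IER2 without the first array of Si306 + 10 Gy, since another probe stood in. The cause was not tested for the others.

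Over all gene names, calls between the PT doses numbered 4687, and 2413 to 2604 without an array of U87 10 Gy, 1910 without both arrays that hold a mislabelled scan, 0 with all 24 scans and 308 with normexp on all spots. Calls between the Si306 doses numbered 5002, and 2368 to 3177 without a Si306 array, 13682 with median centring, 1878 with all 24 scans and 262 with normexp on all spots. That normexp fit also lowered the calls to 2831, 3127, 5645 and 3511 in the configurations from 13004, 13102, 15110 and 14157.

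Deviations of scans with the same replicate number in the labels correlated at -0.086 to 0.09 over 30 pairs, so the numbers showed no pairing of scans. Whether the cultures were paired cannot be told from repeat scans. Treating every scan as a replicate with the replicate number as a block called 9, 6, 9, 9, 8 and 6 of the 9 genes, and 9710 and 11802 gene names for the differences. Repeat scans of an array are not independent (correlation 0.503), so this fit overstates the number of replicates.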
